A study of Homo sapiens with 16 samples.

Results

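Five-protein clusters are short stretches of the genome of LoVo cells in which HNF4A, KLF5, MYC, RAD21 and CTCF all had at least 1 peak in early S phase. They were found by chaining the S-phase peaks of the 5 proteins wherever at most 1000 bp lay between neighbours, and by keeping the chains that held every protein. This rule left 554 clusters of 48815 chains, or 1.13%. A further 1558 chains held exactly 4 of the proteins and serve here as the nearest comparison.

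LoVo is an established human colon adenocarcinoma line, and binding was measured by ChIP-seq, in which the DNA bound to a protein is pulled down with an antibody and sequenced. M-phase cells, whose chromosomes are condensed, were blocked once, for 12 h, in 2 mM thymidine and then arrested for 8 h with nocodazole at 200 ng/ml, a drug that prevents spindle assembly. Early S-phase cells were blocked 2 times in 2 mM thymidine, each time for 12 h, and released for 8 h in between. The 16 libraries gave 12 peak lists, 1 per target and phase, and 4 IgG controls, so every value below describes 1 library of 1 line arrested by drugs. No label of these samples names a genotype or an siRNA, although an siRNA against RAD21 is mentioned in the series' design text.

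HNF4A is a nuclear receptor that maintains the identity of liver and gut epithelium. KLF5, a zinc-finger protein, is found where gut epithelium divides, and MYC pairs with MAX to bind E-boxes and promotes growth. CTCF is a zinc-finger protein that binds a long DNA motif and stops cohesin as it travels along the chromosome. RAD21 closes the cohesin ring, which forms chromatin loops and keeps sister chromatids together until they part. In mitosis most cohesin leaves the chromosome arms, and many transcription factors lose most of their sites. The title of the series places factor binding in dense clusters around cohesin sites, and the M-phase lists show what was still listed at such clusters in mitosis.

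The ChIP libraries of the 5 proteins held 7362169 to 16813394 filtered tags, and the ratio of M-phase to S-phase tags was 2.19 for RAD21, 1.89 for CTCF, 1.65 for MYC, 1.38 for HNF4A and 0.712 for KLF5. The 4 HNF4A, KLF5, MYC and RAD21 comparisons share the same rabbit IgG controls, with 6875106 tags in M phase and 10753369 in S phase. CTCF was set against goat IgG with 4222390 tags in M phase and 3658103 in S phase, and the headers name another set of alignments for its S-phase tags. The M-phase KLF5 list has 2118 peaks, a number that the labels place at the M-phase rabbit IgG control and not at KLF5, so M-phase KLF5 values rest on a list whose label is unclear. Peaks of histone H3, a chromatin control, lay in 0 clusters in M phase and in 4 in S phase. Over all chains the shares at H3 peaks were 0.0533% in M phase and 0.660% in S phase, so these low counts are not particular to the clusters.

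The clusters were compact. Their width had a median of 3128 bp and ran from 1081 to 26170 bp, against a median of 2607.5 bp for chains of 4 proteins and 1349 bp for all chains. Exactly 1 peak of each protein was present in 308 clusters (55.6%). Another 118 clusters held 6 peaks, 64 held 7, and the fullest held 20. In 404 clusters the peaks overlapped or touched in 1 unbroken block, and 150 had at least 1 gap inside.

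Width and peak number follow in part from the rule and are given as descriptions. Just inside its limit lay clusters with inner gaps of 999, 992 and 985 bp, and just outside it lay pairs of neighbouring chains that hold all 5 proteins only together, with 1021, 1031 and 1031 bp between them. The weakest of the 5 proteins in a cluster was KLF5 in 195 clusters, HNF4A in 144, RAD21 in 94, CTCF in 62 and MYC in 59. Its best score, which is -10 times the log10 of the authors' MACS p-value, had a median of 67.9 and reached down to 50.03, next to the calling cutoff of 50.

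**Figure D1:**
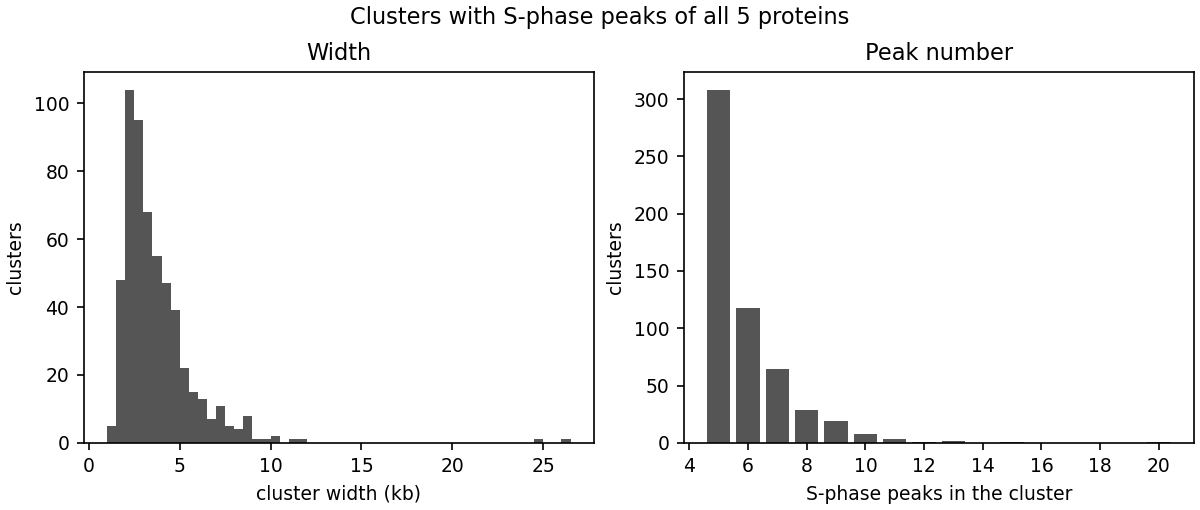
Width (kb) and number of S-phase peaks of five-protein clusters, as counts of clusters. The median width is 3128 bp, and 308 of the 554 clusters hold exactly 5 peaks.

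The clusters held 3285 peaks, and they took up different shares of the 5 lists. They contained 10.5% of all S-phase KLF5 peaks (620), 5.80% of MYC (693), 4.41% of HNF4A (680), 2.50% of RAD21 (679) and 2.15% of CTCF (613). KLF5 and CTCF each had a single peak in 496 clusters, RAD21 in 450, HNF4A in 446 and MYC in 435.

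CTCF peaks of the clusters had the most tags and were the broadest. Their median was 117 tags and 2111 bp, against 42 tags and 1388 bp for CTCF peaks elsewhere. MYC peaks had a median of 44 tags in clusters and 30 elsewhere, HNF4A peaks 40 and 30, and KLF5 peaks 36 and 27. RAD21 peaks differed little, with 23 tags in clusters and 21 elsewhere. RAD21 was also the only 1 of the 5 with a lower median score in clusters (126) than elsewhere (141). Median fold enrichment over the local background was lower in clusters than elsewhere for CTCF (12.9 and 15) and RAD21 (8.73 and 11.05). It was also lower for HNF4A (8.99 and 9.68), equal for KLF5 (8.34) and higher for MYC (9.40 and 8.74). These S-phase strengths come from the lists that chose the clusters and are descriptions only.

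Inside the clusters, RAD21 and CTCF sat together and the 3 transcription factors lay beside them. Taking the strongest peak of each protein, the summits of RAD21 and CTCF were a median of 69.5 bp apart, and 367 of 554 pairs (66.2%) were at most 100 bp apart. The same pair had a median distance of 60 bp in chains of 4 proteins and of 48 bp in chains of 2 to 4. The factors were nearest to each other, at a median of 204 bp for KLF5 and MYC, 255 bp for HNF4A and KLF5, and 358 bp for HNF4A and MYC. From a factor to RAD21 or CTCF the median distance was between 525 bp (MYC to RAD21) and 651 bp (HNF4A to CTCF).

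Every pair of summits had a larger median distance in the clusters than in chains of 4 proteins, where the median distance was 163.5 bp for KLF5 and MYC and 553 bp for HNF4A and CTCF. The clusters are wider by construction, and these distances carry no test. The 5 summits of a cluster spanned a median of 1182.5 bp, with a range of 77 to 8382 bp. All 5 lay within 100 bp of one another in 6 clusters, within 500 bp in 118 (21.3%) and within 2000 bp in 399 (72.02%).

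**Figure D2:**
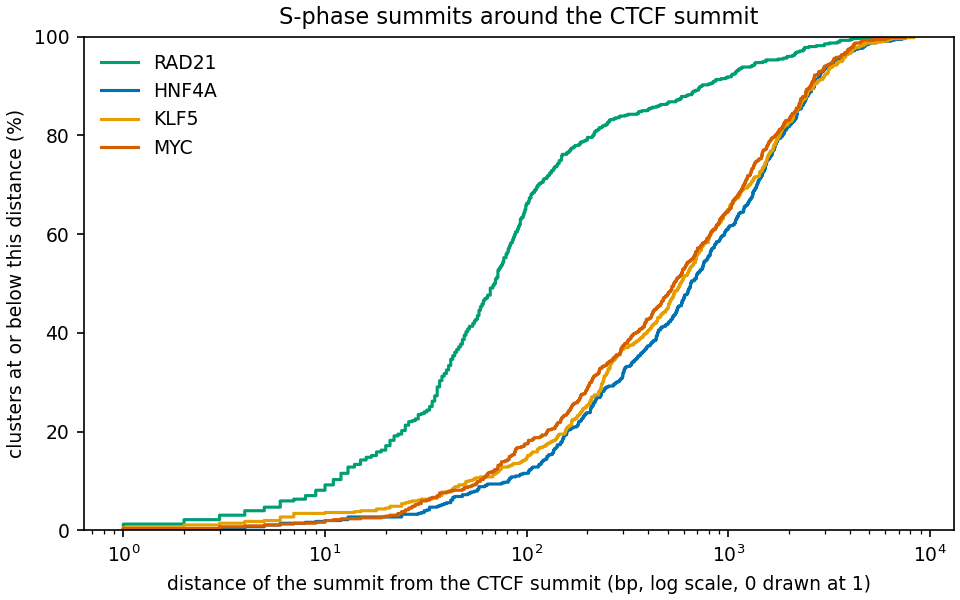
Distance of the strongest RAD21, HNF4A, KLF5 and MYC summits from the strongest CTCF summit in five-protein clusters (bp, log scale). Curves give the percent of clusters at or below each distance. RAD21 is closest, with a median of 69.5 bp.

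The order of the summits along the chromosome, read without direction, showed the same pairing. RAD21 and CTCF were next to each other in 426 clusters (76.9%). In 343 clusters (61.9%, 95% interval 57.7 to 66.0) both lay on 1 side of all 3 factors. The pair sat between factors in 83 clusters (14.98%), and RAD21 and CTCF flanked the 3 factors at opposite ends in 21 (3.79%).

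No single line-up of the 5 proteins was shared by most clusters. Each of the 60 possible orders occurred, and the most frequent, HNF4A, KLF5, MYC, CTCF, RAD21, was seen in 43 clusters (7.76%). MYC held the middle position in 28.3% of clusters, KLF5 in 24.5%, HNF4A in 22.2%, RAD21 in 14.4% and CTCF in 10.5%. HNF4A, CTCF and RAD21 were outermost in 43.7%, 43.1% and 42.4% of clusters, MYC in 37.0% and KLF5 in 33.8%. The summit nearest to RAD21 was that of CTCF in 372 clusters (67.1%), of HNF4A in 68, of MYC in 59 and of KLF5 in 55.

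The side of CTCF on which RAD21 lay was set against the side of each factor. Leaving out ties, the RAD21 and HNF4A summits were on the same side of CTCF in 312 of 551 clusters (56.6%, 52.4 to 60.8), RAD21 and KLF5 in 310 of 550 (56.4%, 52.1 to 60.6), and RAD21 and MYC in 298 of 550 (54.2%, 49.9 to 58.4). These shares count the same clusters 3 times and come from the lists that chose the clusters. Both sides are read from 1 CTCF summit, and an error in its place puts RAD21 and the factor on the same side. An even split is therefore not a proper reference, and the shares do not show that RAD21 faces the factors. Each list comes from its own immunoprecipitation, so proteins of 1 cluster need not have been bound in the same cell.

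In M phase the clusters mainly kept CTCF and RAD21, while most factor peaks were not listed. A CTCF peak was listed in M phase within the span of 483 clusters (87.2%, 84.1 to 89.9), and a RAD21 peak within 395 (71.3%, 67.3 to 75.03). Of the factors, MYC was listed in 105 clusters (18.95%, 15.8 to 22.5), KLF5 in 80 (14.4%, 11.6 to 17.6) and HNF4A in 68 (12.3%, 9.66 to 15.3). In ChIP of a cell population, fewer cells with a bound site and less binding per cell cannot be told apart. With 1 library per phase there was no test across samples, and all intervals cover counting error over clusters or peaks only, which are not replicates.

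Among all chains that held the protein in S phase, the background share with the protein listed in M phase was 69.9% for CTCF, 70.7% for RAD21, 13.5% for MYC, 12% for KLF5 and 12.9% for HNF4A. The cluster shares of RAD21, HNF4A and KLF5 were thus close to background, which lay inside their intervals. Those of CTCF and MYC were above it. Clusters are wider than most chains, so an M-phase peak has more room to fall within their span.

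The clusters could be sorted by what was listed in them in M phase. RAD21 and CTCF were both listed in 362 clusters (65.3%), CTCF without RAD21 in 121 (21.8%), RAD21 without CTCF in 33 (5.96%) and neither in 38 (6.86%). The commonest state was RAD21 and CTCF with no factor, in 215 clusters (38.8%). At least 1 factor was listed in 203 clusters (36.6%), of which 157 had 1 factor, 42 had 2 and 4 had all 3. Counting all 5 proteins, 27 clusters had none in M phase, 120 had 1, 253 had 2, 113 had 3, 39 had 4 and 2 had all 5.

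Read peak by peak, the kept share separated the proteins in another way. Kept means here that at least 1 bp of the peak was covered by the protein's own M-phase list. CTCF peaks were kept at 83.2% in clusters (510 of 613) and 69.1% elsewhere, a difference of 14.1 percentage points (10.9 to 16.9), with 69.4% over the whole list. RAD21 peaks were kept at 64.7% (439 of 679) in clusters and 69.9% elsewhere, a difference of -5.22 points (-8.93 to -1.67), with 69.7% over the list.

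RAD21 in clusters was thus below the rest of its list, but above the pooled chains of 4 proteins, where 53.7% were kept (difference 10.97 points, 6.53 to 15.3). The pooled chains were not alike. RAD21 was listed in M phase in 32.0% of those that lacked only CTCF, against 71.3% of clusters. It was listed in 72.6%, 72.5% and 77.0% of those that lacked only HNF4A, KLF5 or MYC. For these 3 kinds of chain the interval of the difference from clusters included 0. CTCF peaks in chains of 4 proteins were kept at 80.4% (difference 2.78 points, -1.07 to 6.43). When 50% of each peak had to be shared, the CTCF difference from all other peaks turned to -14.4 points (-18.2 to -10.4), and that of RAD21 moved to -10 (-13.8 to -6.34). The CTCF difference was larger with M-phase FDR under 5% (28.5 points, 24.5 to 32.4) and with a score of at least 100 in both phases (23.8 points, 16.1 to 29.3). The median width of kept CTCF peaks in clusters was 1025 bp in M phase and 2217.5 bp in S phase, against 899 and 1476 bp elsewhere, and their part in the turn was not tested.

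For the factors, only the MYC difference from the rest of the list had an interval away from 0 without regard to score. MYC peaks were kept at 15.6% in clusters (108 of 693) and 12.4% elsewhere, with 12.6% over the list (difference 3.21 points, 0.623 to 6.16). KLF5 peaks were kept at 13.1% in clusters (81 of 620) and 11.2% elsewhere, with 11.4% over the list (1.86 points, -0.725 to 4.85). HNF4A peaks were kept at 10% in clusters (68 of 680) and 12.4% elsewhere, with 12.3% over the list (-2.42 points, -4.53 to 0.117).

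Compared with peaks of like S-phase score, in 10 equal groups, the differences of all 3 factors were negative. The difference became -3.22 points for MYC (-5.79 to -0.656), -2.63 for KLF5 (-5.28 to 0.0279) and -5.04 for HNF4A (-6.93 to -3.15), which turned the direction for MYC and KLF5. For CTCF it shrank to 5.37 points (2.75 to 8.00) and for RAD21 to -2.73 (-5.85 to 0.389). With a score of at least 100 in both phases the direction turned for HNF4A (0.849 points, -3.29 to 7.4), KLF5 (-1.02, -4.03 to 4.72) and RAD21 (2.32, -6.60 to 9.92), and with 50% of each peak shared it turned for KLF5 (-2.16, -3.64 to -0.174) and MYC (-0.844, -2.81 to 1.56).

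**Figure D3:**
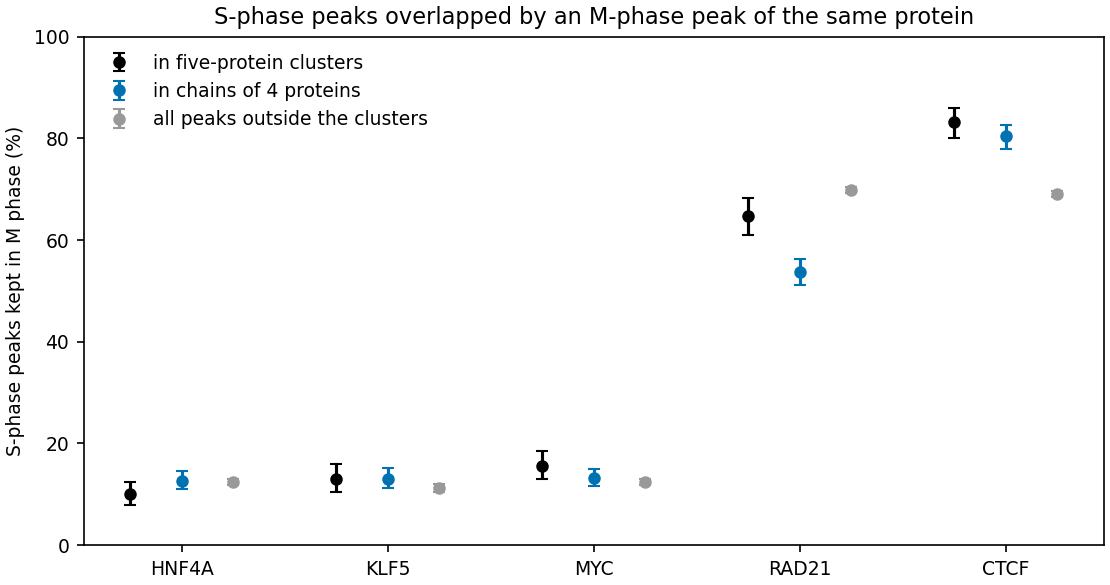
Share of S-phase peaks of each protein that were kept in M phase (percent, with exact 95% intervals over peaks), in five-protein clusters, in chains with 4 proteins and among all peaks outside the clusters. CTCF in clusters is highest at 83.2%, RAD21 in clusters at 64.7% lies between chains of 4 proteins (53.7%) and all peaks outside the clusters (69.9%), and the 3 factors in clusters lie between 10% and 15.6%.

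Fate followed the strength of the strongest S-phase peak in the cluster for every protein. With the 554 clusters put in 4 equal groups by score, HNF4A was listed in M phase in 0 of 139 clusters of the weakest group, with an exact 95% interval up to 2.62%, then in 1.45%, 5.76% and 42.0% of the stronger groups. MYC was listed in 5.04%, 7.25%, 17.99% and 45.7%, and KLF5 in 2.88%, 5.07%, 11.5% and 38.4%. RAD21 was listed in 43.2%, 63.8%, 81.3% and 97.1%, and CTCF in 66.2%, 86.2%, 97.1% and 99.3%. The median S-phase score of kept and lost HNF4A peaks in clusters was 575 and 100, and that of RAD21 peaks 183 and 81.2.

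Peaks that were kept had fewer tags per 1000000 in M phase than in S phase for every protein. Kept HNF4A peaks of the clusters had a median of 1.84 tags per 1000000 filtered tags in M phase, against 9.07 in S phase. MYC had 1.99 in M phase and 9.53 in S phase, and KLF5 2.44 and 6.96. CTCF had 3.38 in M phase and 17.6 in S phase. RAD21 was nearest to its S-phase level, with 2.97 in M phase and 3.98 in S phase. Tags are counted over each phase's own peak, and the median width of these kept peaks was 1221 bp in M phase and 1056 bp in S phase for RAD21, 1025 and 2217.5 bp for CTCF, 874.5 and 1847 bp for HNF4A, 1166 and 2343 bp for MYC, and 884 and 2286 bp for KLF5. The part of these widths in the tags was not tested.

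The median ratio of M-phase to S-phase tags per 1000000 at kept peaks was 0.211 for HNF4A, 0.227 for MYC, 0.364 for KLF5, 0.202 for CTCF and 0.715 for RAD21. At kept peaks elsewhere it was higher for each, at 0.277 for HNF4A, 0.289 for MYC, 0.534 for KLF5, 0.331 for CTCF and 0.748 for RAD21. The median shift of the summit at kept peaks was 43 bp for CTCF, 54 bp for RAD21, 56 bp for HNF4A, 96.5 bp for MYC and 173 bp for KLF5. The M-phase summit lay within 100 bp of the S-phase summit at 79.4% of kept CTCF peaks, 74.0% of RAD21, 72.1% of HNF4A, 50% of MYC and 41.98% of KLF5.

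Few M-phase peaks in clusters were away from an S-phase peak of their own protein. This was so for 1 of 71 HNF4A peaks, 1 of 113 MYC peaks, 5 of 90 KLF5 peaks, 19 of 599 CTCF peaks and 34 of 455 RAD21 peaks. By the rule every cluster holds an S-phase peak of each protein. These counts are therefore descriptions and not a trait of the clusters. An FDR under 5%, as MACS gives it, held for 0 of the 71 HNF4A peaks. It held for 6 MYC peaks (5.31%), 45 KLF5 peaks (50%), 293 RAD21 peaks (64.4%) and 368 CTCF peaks (61.4%). Over the M-phase lists it held for 86 of 1974 MYC, 396 of 2118 KLF5, 14307 of 22966 RAD21 and 8917 of 24391 CTCF peaks. The MYC and RAD21 shares in clusters were thus near those of their lists, and the KLF5 and CTCF shares were above them. No peak of the whole M-phase HNF4A list had such an FDR.

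RAD21 was kept more often where its summit was close to that of CTCF. The strongest RAD21 peak was kept in 288 of 367 clusters (78.5%) with the CTCF summit at most 100 bp away, and in 94 of 187 (50.3%) with a larger distance. The difference was 28.2 points (19.8 to 36.3), and 16.8 points (8.43 to 25.2) between clusters of like RAD21 score. The median RAD21 score was 179 in the near clusters and 105 in the far ones.

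The same held among all RAD21 peaks of the clusters. Of those that overlapped a CTCF peak, 429 of 634 (67.7%) were kept, against 10 of 45 (22.2%) that overlapped none. The difference was 45.4 points (30.9 to 55.7), and 22.5 points (10.1 to 34.8) between peaks of like score, with a median score of 135 at CTCF and 69.5 away from it. Both kinds were present in 28 clusters, which allows a comparison within a cluster. In 17 of these only a peak at CTCF was kept, in 2 only a peak away from CTCF, in 6 both kinds and in 3 neither.

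Chains of 4 proteins show the fate of a protein where 1 partner was not listed. RAD21 was listed in M phase in 71.3% of clusters and in 32.0% of the 485 chains that lacked only CTCF, a difference of 39.3 points (33.5 to 44.7). CTCF was listed in 87.2% of clusters and in 63.5% of the 219 chains that lacked only RAD21, a difference of 23.7 points (16.9 to 30.7). Between clusters and chains of like score the differences were 22.7 points (16.1 to 29.3) for RAD21 and 10.7 points (3.45 to 18.02) for CTCF.

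HNF4A went the other way. It was listed in M phase in 12.3% of clusters and in 21.4% of the chains that lacked only CTCF, a difference of -9.17 points (-13.8 to -4.62), or -4.00 points (-7.70 to -0.304) at like score. KLF5 was listed in 14.4% of clusters and 18.97% of these chains (-4.53 points, -9.12 to 0.0057), or -4.45 points (-8.72 to -0.182) at like score. MYC was listed in 18.95% of clusters and 16.9% of these chains (2.05 points, -2.66 to 6.68), or -1.60 points (-5.70 to 2.49) at like score.

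Among the factors, the absence of 1 went with a lower share of another in some chains, and at like score every such interval included 0. MYC was listed in 18.95% of clusters and 9.87% of chains that lacked only KLF5, and KLF5 in 14.4% of clusters and 7.29% of chains that lacked only HNF4A. At like score these differences of 9.08 and 7.15 points became 2.53 (-1.34 to 6.399) and 1.46 (-2.03 to 4.96). For HNF4A against chains that lacked only KLF5, 4.12 points (0.352 to 7.81) became -0.257 (-3.17 to 2.65). The interval included 0 from the start for MYC without HNF4A (4.72, -0.723 to 9.69). It also did for HNF4A (1.27, -6.75 to 6.89) and KLF5 (2.44, -5.82 to 8.36) without MYC. Of 20 such comparisons, 6 had an interval away from 0, and 4 had one at like score. The intervals are not adjusted for their number.

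Factor peaks close to CTCF inside a cluster had lower kept shares, by differences whose intervals included 0. With the strongest factor summit at most 500 bp from the CTCF summit, HNF4A was kept in 24 of 232 clusters (10.3%), and in 40 of 322 (12.4%) when farther away (-2.08 points, -7.30 to 3.49). KLF5 was kept in 29 of 249 near and 47 of 305 far clusters (-3.76 points, -9.40 to 2.07). MYC was kept in 40 of 265 near and 58 of 289 far clusters (-4.97 points, -11.3 to 1.42). At like score the MYC difference was -4.82 points (-10.6 to 0.963), the KLF5 difference -0.780 (-5.68 to 4.13), and the HNF4A difference turned to 0.161 (-3.86 to 4.18). With near set at 1000 bp, the MYC difference was -6.58 points (-13.7 to 0.0655), and at like score -7.29 (-13.5 to -1.06), an interval away from 0. These intervals do not show that near and far shares are alike.

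KLF5 and RAD21 were listed in M phase more often in clusters with more peaks. Of the 246 clusters with over 5 peaks, KLF5 was listed in 20.3%, against 9.74% of the 308 with exactly 5 (10.6 points, 4.64 to 16.7). RAD21 was listed in 76.0% and 67.5% (8.48 points, 0.904 to 15.8), and any factor in 41.1% and 33.1% (7.94 points, -0.129 to 15.9). The intervals included 0 for MYC (3.93 points, -2.61 to 10.6), HNF4A (1.32, -4.14 to 7.03) and CTCF (1.12, -4.64 to 6.63). In the 182 clusters with 6 to 7 peaks, CTCF was listed in 85.2%, RAD21 in 71.4% and any factor in 37.4%. In the 64 clusters with 8 or more peaks, CTCF was listed in 95.3%, RAD21 in 89.1% and any factor in 51.6%. Median width was 6493 bp in these and 2521 bp in clusters of 5 peaks. A wider span gives an M-phase peak more room to fall within it, and the part of width was not tested.

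Clusters were unevenly spread over the chromosomes. They made up 2.15% of the chains on chromosome 12 (61 of 2832), 1.98% on chromosome 15 (35 of 1769), 1.92% on chromosome 19 (36 of 1872) and 1.71% on chromosome 17 (38 of 2224). At the low end were chromosome 21, with 1 of 510 chains (0.196%), chromosome 13, with 5 of 1152 (0.434%), chromosome 18, with 5 of 1031 (0.485%), and chromosome 4, with 12 of 2342 (0.512%). The X chromosome had 0 of 1093 chains, which allows a share of up to 0.274% by the limit of 3 counts and 0.337% by the exact 95% interval. Chains of 4 proteins, 3.19% of all chains, made up 4.56%, 5.37%, 3.85% and 4.27% on chromosomes 12, 15, 19 and 17. They made up 2.35%, 1.74%, 2.04% and 2.82% on chromosomes 21, 13, 18 and 4, and 0.732% on X. The uneven spread over these chromosomes is thus not particular to the clusters. Of the 12 clusters on chromosome 4, 0 had a factor listed in M phase, 7 had RAD21 and 12 had CTCF, where all clusters had 36.6%, 71.3% and 87.2%. Of the 5 clusters on chromosome 18, 0 had a factor in M phase. Both chromosomes were picked after their counts were seen, and 12 and 5 clusters are too few to show a loss particular to a chromosome.

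Chromosomes were also grouped by what is known of them, with their shares already in view, so these values carry no test. Chromosomes 5, 7, 12 and 15, which are gained in LoVo, held 157 clusters among 10131 chains (1.55%), against 1.03% elsewhere. Chromosome 5 did not share in this, with 19 of 2665 chains (0.713%). The gene-rich chromosomes 16, 17, 19 and 22 had 1.60%, against 1.06% elsewhere, and the gene-poor chromosomes 4, 13 and 18 had 0.486%, against 1.20% elsewhere. Chains of 4 proteins went the same way, with 4.11% against 2.95%, 3.75% against 3.10% and 2.36% against 3.28% for these groups in the same order. Copy number was not measured, and its part in these shares was not tested.

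**Figure D4:**
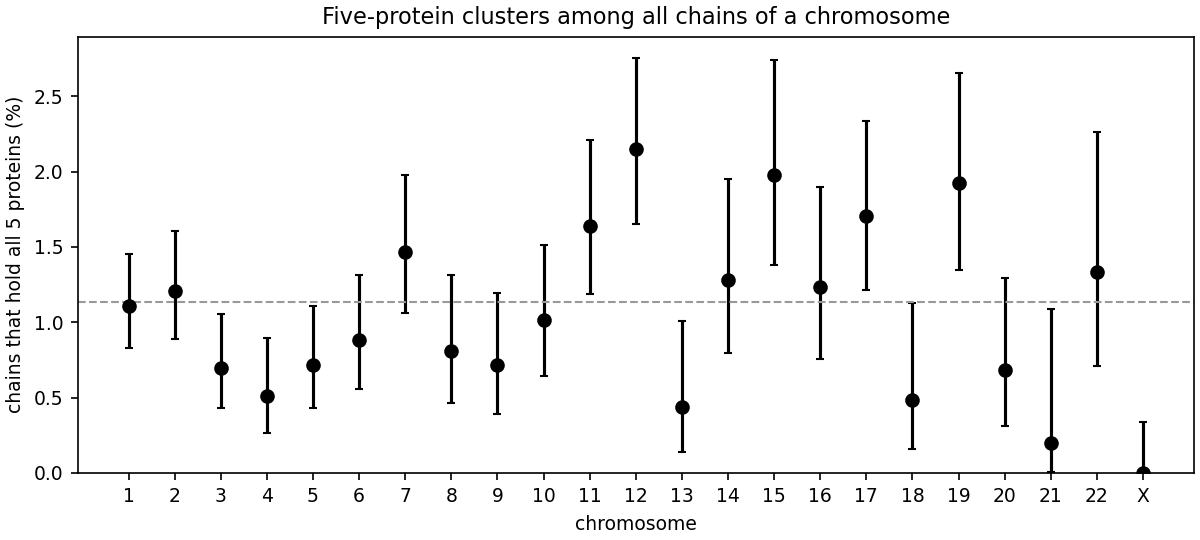
Share of the chains of each chromosome that hold all 5 proteins (percent, with exact 95% intervals over chains). Chromosome 12 is highest at 2.15%, chromosome 21 is at 0.196%, and X has no cluster among 1093 chains.

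Most clusters stood alone. The median gap between neighbouring clusters was 1503565 bp, and 88 clusters (15.9%) had another within 100 kb. Steps of at most 100 kb joined 35 pairs, 3 groups of 3, 1 of 4 and 1 of 5. The group of 5 covered 141627 bp of chromosome 7 (hg18, 27101338 to 27242964), with RAD21 listed in M phase in 5 of its clusters, CTCF in 4 and a factor in 1. The group of 4 lay on chromosome 12 (hg18, 54605851 to 54800469), with CTCF in 4 clusters, RAD21 in 3 and a factor in 3.

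The 2 widest clusters were neighbours in the group on chromosome 7. The first covered 27161129 to 27187298 (26170 bp) with 20 peaks, 4 of HNF4A, 5 of KLF5, 4 of MYC, 5 of RAD21 and 2 of CTCF. Tags are given here as unscaled counts of M-phase and S-phase peaks that overlap. Counts in the clusters named further below are unscaled too. Filtered tags in M phase were 2.19 times those in S phase for RAD21, 1.89 for CTCF, 1.65 for MYC, 1.38 for HNF4A and 0.712 for KLF5. A higher M-phase count of RAD21 is therefore not in itself a gain. At the first of its S-phase CTCF sites CTCF had 64 tags in M phase and 273 in S phase, and at the other, 18766 bp away, 85 in M phase and 132 in S phase. RAD21 at the first site had 254 tags in M phase, in a peak that spanned 2 S-phase RAD21 peaks of 45 and 76 tags. The strongest MYC peak had 127 tags in M phase and 351 in S phase, and the strongest KLF5 peak 29 and 233. HNF4A, with up to 269 tags in S phase, was not listed in M phase. Counted from the summit of its strongest S-phase CTCF peak, the strongest RAD21 summit was at -31 bp in M phase and at -88 bp in S phase.

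Its neighbour at 27188328 to 27213107 (24780 bp), 1029 bp away, had 15 peaks and lost all 3 factors. It held 130 RAD21 tags and 49 CTCF tags in M phase, against 54 and 89 in S phase. Its S-phase factor peaks reached 267 tags for MYC, 183 for HNF4A and 162 for KLF5. The wider cluster had 4 of the 5 proteins listed in M phase and this one 2, but with an M-phase FDR under 5% they had 3 and 1, and with an M-phase score of at least 100 both had 2.

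Only 2 clusters had all 5 proteins listed in M phase. The cluster on chromosome 12 at 54605851 to 54614379 had 107 CTCF tags in M phase and 206 in S phase, and 44 RAD21 tags in M phase and 19 in S phase. A peak of HNF4A had 52 tags in M phase and 230 in S phase, and one of KLF5 24 and 110. MYC was kept at both of its sites, with 58 tags in M phase and 64 in S phase at the one and 36 and 67 at the other. The cluster on chromosome 19 at 45798379 to 45806120 had 60 CTCF tags in M phase and 166 in S phase, and 26 RAD21 tags in M phase and 11 in S phase. HNF4A was kept at 2 sites, with 21 tags in M phase and 73 in S phase at the one and 26 and 51 at the other. Its MYC peak had 18 tags in M phase and 62 in S phase, and its KLF5 peak 21 and 165. Its RAD21 summit was at 199 bp from the strongest S-phase CTCF summit in M phase and at 3468 bp from it in S phase, so RAD21 was listed at different sites of this cluster in M and S phase. With M-phase peaks of an FDR under 5% only, the cluster on chromosome 12 had 3 of the 5 proteins and that on chromosome 19 had 2.

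The factor content of other large clusters varied. On chromosome 17, a cluster of 13 peaks at 40559642 to 40569650 had 54 KLF5, 41 RAD21 and 132 CTCF tags in M phase, against 163, 22 and 414 in S phase, and neither HNF4A nor MYC in M phase. On chromosome 15, a cluster of 11 peaks at 89273491 to 89280615 had 65 MYC, 45 RAD21 and 162 CTCF tags in M phase, against 141, 33 and 434 in S phase. HNF4A had 16 tags in M phase and 32 in S phase at 1 site, and was not listed in M phase at the other, which had 58 tags in S phase. On chromosome 12, the cluster at 4248691 to 4259911 had 53 HNF4A, 93 MYC, 86 RAD21 and 59 CTCF tags in M phase, against 187, 247, 41 and 138 in S phase.

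Other clusters had only the RAD21 and CTCF pair, or nothing, in M phase. On chromosome 12, a cluster at 729964 to 736106 with 4 RAD21 peaks had 69 RAD21 and 68 CTCF tags in M phase, against 43 and 183 in S phase. Of the 27 clusters with no M-phase peak of any of the 5 proteins, the one with the most S-phase peaks was on chromosome 19 at 2985225 to 2988898, where 8 S-phase peaks reached 33 HNF4A, 36 KLF5, 41 MYC, 10 RAD21 and 83 CTCF tags. Of those with 7 peaks, one on chromosome 7 at 72664414 to 72668116 had 57 HNF4A, 33 KLF5, 29 MYC, 24 RAD21 and 86 CTCF tags in S phase.

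**Figure D5:**
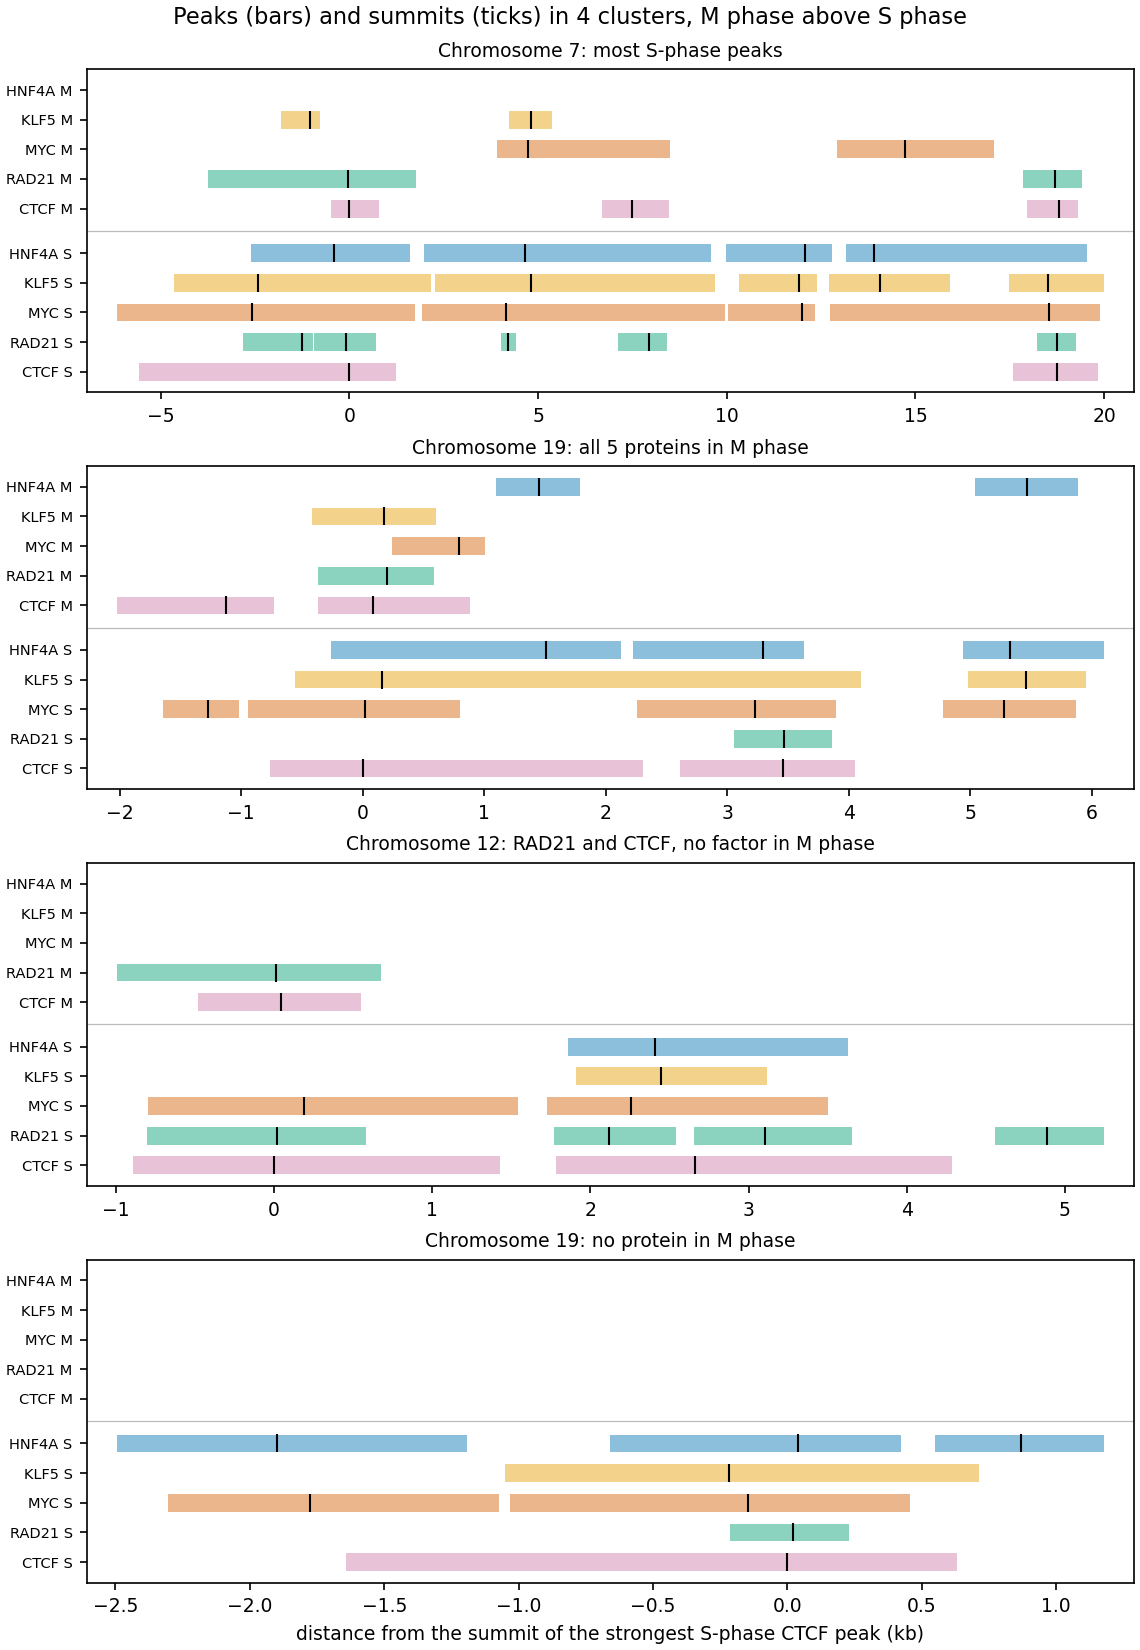
Peaks (bars) and summits (ticks) of the 5 proteins in 4 clusters, by distance in kb from the summit of the strongest S-phase CTCF peak, with M-phase rows above S-phase rows. From the top they are the cluster of 20 peaks on chromosome 7, the one with all 5 proteins in M phase on chromosome 19, the one with only RAD21 and CTCF in M phase on chromosome 12, and the one with none in M phase on chromosome 19.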

How the data were processed

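The S-phase and M-phase peak lists of the 5 proteins and of histone H3 were used, 1 library per target and phase, grouped by the sample titles. Per the submitters' processing notes, reads went through CASAVA 1.4, BWA, build hg18 and MACS 1.4. Per the file headers, MACS 1.4.0rc2 called peaks against IgG with a p-value cutoff of 1e-05 and at most 1 tag kept per position. The deposited tag counts are whole and unscaled. The deposited score is the log10 of the p-value multiplied by -10, the deposited fold enrichment is a ratio over the local background, and the deposited FDR is in percent. All listed peaks were used.

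The members and lists were chosen with earlier results of these data known. Chaining, overlap and standardisation were done with scipy 1.17.1, pandas 2.3.3 and numpy 2.4.6 under Python 3.11.15, and were tested on simulated data. Shares have exact Clopper-Pearson and differences Newcombe 95% intervals. Differences at like score are weighted over 10 equal groups of the S-phase score for peaks, or 5 groups within clusters and chains of 4 proteins, with normal intervals. No p-value was computed. Tags per 1000000 divide tag counts by the library's filtered tags. Named clusters, outside chromosome 8, were taken from those with the most S-phase peaks, with the most proteins in M phase, with only RAD21 and CTCF in M phase, with none in M phase, or with the smallest gaps. No genome or annotation of build hg18 was used here, so no sequence is printed and no gene is named. Alternatives covered the gap, score and FDR limits, the overlap, H3 peaks, strength and the peaks compared with.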

Additional observations from a re-analysis of the deposited data

How the results depend on the processing

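The number of clusters was within 1.5 times of 554 at gaps of 500 and 3000 bp and without clusters at H3 peaks, and 108 were left with a score of at least 100 in both phases. That score minimum also lowered the clusters listed in M phase to 5.56% for KLF5 and 11.1% for MYC. With M-phase FDR under 5%, the shares listed in M phase were 61.0% for CTCF, 48.4% for RAD21, 7.94% for KLF5, 1.08% for MYC and 0 for HNF4A. With 50% of each peak shared they were 41.7%, 65.9%, 4.69%, 10.6% and 4.33% in the same order, and a gap of 3000 bp gave 76.0% for RAD21.

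For kept peaks in clusters minus other peaks, a gap of 500 bp gave -2.81 points for HNF4A, and 3000 bp gave 1.66 for MYC and -2.86 for RAD21. The score minimum gave 23.8 for CTCF, 2.32 for RAD21, 3.08 for MYC, -1.02 for KLF5 and 0.849 for HNF4A. M-phase FDR under 5% gave 28.5 for CTCF, 2.16 for KLF5 and 0.146 for MYC, and no value for HNF4A, which has no such peak. With 50% shared the values were -14.4 for CTCF, -10 for RAD21, -0.844 for MYC, -2.16 for KLF5 and -3.29 for HNF4A. Over 10 score groups they were -5.04 for HNF4A, -2.63 for KLF5, -3.22 for MYC and -2.73 for RAD21, and over 5 score groups -4.83, -2.20, -3.09 and -3.02. Against chains of 4 proteins they were 11 for RAD21, 2.78 for CTCF, 2.30 for MYC and -0.046 for KLF5. With 50% shared, HNF4A near minus far from CTCF was 1.33 points. The cause of these changes was not tested.

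The added alternatives, chosen after seeing the data, left the direction and the side of 0 of the RAD21, CTCF and HNF4A differences from chains of 4 proteins and of RAD21 near CTCF as they were. The chromosome group 5, 7, 12 and 15 replaced the 3 gained chromosomes of highest share, which had been looked at first. Its share was also higher at gaps of 500 and 3000 bp and with the score minimum. These settings chain the same S-phase peaks that chose the clusters again, so they are no separate support. No paired analysis was possible because each target has 1 library per phase and no result comes from a test across samples. Peak calls near the cutoff limit every share, and tag depth differs between the phases, so a peak not listed is not shown to be absent.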
